A study of Mus musculus with 2 samples.

Results

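Isolated regions are places where captured methylated DNA was called lower in Uhrf1 conditional knockout (cKO) than Control chondrocytes, with no second such place nearby. They were chosen by position alone: a region of the authors' list on chromosomes 1 to 19 qualified when no other listed region lay within 200 kb on either side. The rule found 820 regions among 34675 on the autosomes and 35861 in the whole list, or 2.36% of the autosomal ones (95% Wilson interval 2.21 to 2.53). It used no tag count, fold or gene annotation.

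The cells were primary chondrocytes from knee cartilage of C57BL/6 mice at postnatal day 3. The groups were Uhrf1 cKO and Control, with 1 library each. Confluent cultures of both had been kept for 24 hours with rhBMP-2, a skeletal growth factor, at 100 ng/ml, so no untreated cells enter any value. The labels name neither the driver of the conditional allele nor the number of animals. DNA bound by MBD2, a protein that recognises methylated CpG dinucleotides, was sequenced (MBD-seq). Captured DNA carries no expression values, so neither the loss of Uhrf1 nor chondrocyte identity could be checked from it. Uhrf1 itself (chromosome 17, 56303337 to 56323486, mm10) held 5 listed regions, none of them isolated.

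After duplicate removal the cKO library held 15039206 tags and the Control library 9782276, which were 76.1% and 44.8% of the caller's total tags. Every region carries a Control tag count, a fold of Control over cKO at its summit, a score (minus 10 times the log10 of a Poisson p) and an FDR in percent. The fold, score and FDR are the values of the authors' caller. The cKO tags of single regions were not used here. With 1 library per genotype no difference between genotypes has a replicate check. Regions are not replicates either, so differences between isolated and other regions were described and not tested. Intervals are 95% and cover counting error only.

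UHRF1 binds hemimethylated CpG sites behind the replication fork and recruits DNMT1, which copies the methyl mark to the new strand. Gene-poor stretches of mammalian chromosomes tend to replicate late and to lie at the nuclear lamina, and in many cultured cells they are the parts of the genome where methylation is lost first. Many of the genes found in such stretches are very long and encode adhesion molecules, guidance receptors and channels of the nervous system.

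Sequence could be shown for the isolated regions that lay over a microRNA gene or a promoter window. A single isolated region covered a microRNA hairpin, out of 919 hairpins annotated on the autosomes, against 15 hairpins covered by other regions. This region, at chr5:48223459-48224147 (mm10, 689 bp), had 372 Control tags, a fold of 12.61 and an FDR of 0%. It was named after its values were seen. The hairpin is Mir218-1, on the plus strand at chr5:48223942-48224051 (GRCm38.p6, RefSeq), within the span of Slit2 (47981291 to 48307735), a secreted guidance ligand of the Robo receptors. The hairpin has 110 nucleotides and 5 CpG dinucleotides, and in its sequence the mature arms are in capitals. In the mature sequences the capitals mark the seed, bases 2 to 8, which pairs with target transcripts. miR-218-5p is known to repress Robo transcripts.
Mir218-1 hairpin: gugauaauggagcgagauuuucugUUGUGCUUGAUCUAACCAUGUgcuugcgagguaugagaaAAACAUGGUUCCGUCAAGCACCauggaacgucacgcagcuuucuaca
mmu-miR-218-5p: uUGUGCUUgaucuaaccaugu
mmu-miR-218-1-3p: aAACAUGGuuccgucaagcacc
The nearest listed regions lay 580 kb and 204 kb away. The region on the 204 kb side was isolated as well and fell in Kcnip4, which encodes a potassium channel-interacting protein.

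Only 2 isolated regions overlapped a promoter window (250 bases before to 50 after a RefSeq transcript start), of 785 on the 18 autosomes with windows, or 0.255% (0.0699 to 0.924). Among other regions 320 of 32695 did, or 0.979% (0.878 to 1.09). Both windows belonged to long noncoding RNA genes, Gm34965 and A930001A20Rik, which are named because there were no others. The Gm34965 window (chr15:86604679-86604978, plus strand, GRCm38.p6) shared 56 bp with a region of 109 Control tags, a fold of 30.9 and an FDR of 0%. The A930001A20Rik window (chr3:14970951-14971250, plus strand) shared 130 bp with a region of 176 tags, a fold of 18.5 and an FDR of 0%. The capitals mark the CpG dinucleotides, searched as CG, which reads the same on both strands. In the Gm34965 window the marked CG lay before the shared 56 bp, and so outside the isolated region. In the A930001A20Rik window it lay within the shared 130 bp.
Gm34965 promoter window: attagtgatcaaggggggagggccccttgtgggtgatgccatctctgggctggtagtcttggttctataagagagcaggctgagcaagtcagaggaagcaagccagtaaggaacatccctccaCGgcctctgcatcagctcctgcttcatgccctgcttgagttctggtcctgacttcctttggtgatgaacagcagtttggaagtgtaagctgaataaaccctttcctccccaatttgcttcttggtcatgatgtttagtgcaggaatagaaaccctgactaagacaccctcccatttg
A930001A20Rik promoter window: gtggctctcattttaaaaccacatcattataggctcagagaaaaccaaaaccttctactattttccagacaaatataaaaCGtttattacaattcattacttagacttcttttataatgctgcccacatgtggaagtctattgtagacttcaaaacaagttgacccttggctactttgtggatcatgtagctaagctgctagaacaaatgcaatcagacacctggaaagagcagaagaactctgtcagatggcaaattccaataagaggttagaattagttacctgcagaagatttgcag
Each window held 1 CG. Of the 31396 windows on these autosomes, 94.8% held at least 1 and 13.8% at most 1. The 352 windows under other regions had a median of 7 CG (interquartile range 5 to 10). Sequence under the remaining isolated regions was not analysed here.

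The isolated regions were spread over every autosome and were commonest where the list was sparse. Chromosome 14, with 10.6 listed regions per Mb, had 60 isolated ones, or 4.55% of its regions (3.55 to 5.81). Chromosome 19, with 19.5 per Mb, had 11, or 0.969% (0.542 to 1.73). A sparse chromosome leaves longer gaps, so this order follows in part from the rule itself. The median isolated region lay 263 kb from its nearer neighbour (interquartile range 225 to 337) and 464 kb from its farther one (337 to 680). Over all autosomal regions the median gap between neighbours was 26.8 kb. Gaps of more than 200 kb were 2832 of 34656, yet they made up 1132 Mb, or 47.2% of the sequence between the first and the last listed region of each autosome. Isolated regions bordered 1350 of these gaps.

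**Figure D1:**
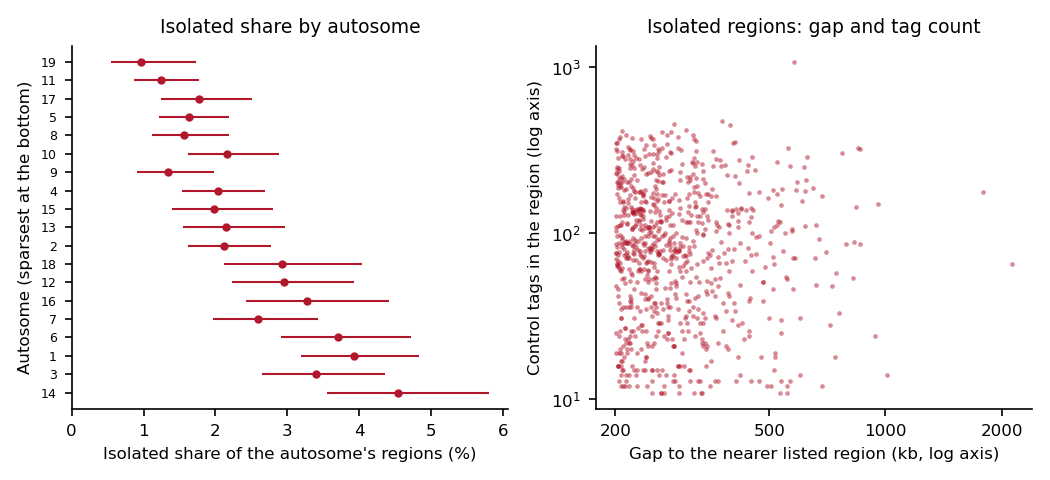
Left: share of each autosome's listed regions that were isolated (%), with 95% Wilson intervals, autosomes ordered from fewest (bottom) to most (top) regions per Mb; the share ran from 0.969% on chromosome 19 to 4.55% on chromosome 14. Right: each of the 820 isolated regions by the gap to its nearer neighbour (kb, log axis) and its Control tags (log axis); 74 regions had a gap of more than 500 kb on both sides, and regions of few and of many tags occur at every common gap.

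Pooled over the autosomes, isolated regions lay nearer the centromere than other regions did. The third of each chromosome at its centromere side (low coordinates in the mouse) held 38.9% of isolated regions (35.6 to 42.3) and 25.1% of other regions. The third at the distal end held 26.3% of isolated regions (23.4 to 29.5) and 45.0% of other regions. The distal share was lower among isolated regions on 16 of 19 autosomes, the exceptions being chromosomes 3, 14 and 19. Where the list is dense fewer regions can be isolated, so this order follows in part from the rule itself.

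The 820 isolated regions formed 533 runs of consecutive list members, and 466 of them (56.8%) stood in runs of at least 2. Neighbours in a run share a gap, so the rule itself favours such runs, and no excess over that was tested. The longest run held 8 regions over 3.93 Mb of chromosome 1 (107526614 to 111461219), a stretch in which the cadherin genes Cdh7 and Cdh19 are the main annotated genes beside 2 serpin genes. Its 8 regions had 73 to 305 Control tags and folds of 5.56 to 30.81, and 7 had an FDR of 5% or less. Another run of 6 on chromosome 6 (9652329 to 11205964) overlapped no protein-coding gene, and 2 of its regions had an FDR of 5% or less. The run of 6 on chromosome 5 holds the Mir218-1 region, and one of 6 on chromosome 16 (73858143 to 75601412) runs through Robo2, a receptor for Slit ligands.

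Isolated regions were thinner than other regions. They had a median of 85 Control tags (78 to 90) and a length of 439 bp (427 to 453), against 105 tags (104 to 106) and 478 bp (476 to 480) for the 33855 other autosomal regions. The tag counts of the groups overlapped widely, with interquartile ranges of 38.8 to 156 for isolated and 61 to 177 for other regions. The isolated median was lower on 17 of 19 autosomes, and higher on chromosomes 15 and 19. Fewer than 50 tags were counted in 245 isolated regions (29.9%, 26.8 to 33.1) and in 19.6% of other regions. The authors' FDR was 5% or less for 422 isolated regions (51.5%, 48.0 to 54.9), where the whole list had 56.9% and other autosomal regions 57.4%. This share was lower among isolated regions on 11 autosomes and higher on 8. It was 100% for 169 isolated regions (20.6%, 17.98 to 23.5), where the whole list had 16.2%.

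The median fold was higher in isolated regions, at 13.8 (12.8 to 14.8), than in other regions, at 12.06 (11.98 to 12.16). It was higher in isolated regions on 14 autosomes and lower on 5. It reached 10 in 561 isolated regions (68.4%), close to the 64.6% of the whole list, and 20 in 267 (32.6%, 29.4 to 35.8), where the whole list had 21.5%. This order depended on the tag count. Among regions with 11 to 60 tags, the lowest quartile of the autosomal list, the median fold was 23.1 in 289 isolated regions and 19.8 in other regions. With 61 to 104 tags it was 9.54 in isolated regions (8.66 to 11) and 8.41 in other regions. With 105 to 177 tags the medians were 11.04 in isolated regions (10.3 to 12.9) and 10.9 in other regions. In the highest quartile the order turned, with 11.8 in 168 isolated regions (10.8 to 12.6) and 13.15 in other regions. The share at an FDR of 5% or less, with tags matched, was higher in isolated regions in the second quartile and lower in the other quartiles, at 13.5% of isolated and 15.4% of other regions in the lowest quartile, 40.1% and 30.7% in the second, 83.0% and 84.3% in the third, and 96.4% and 99.1% in the highest.

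**Figure D2:**
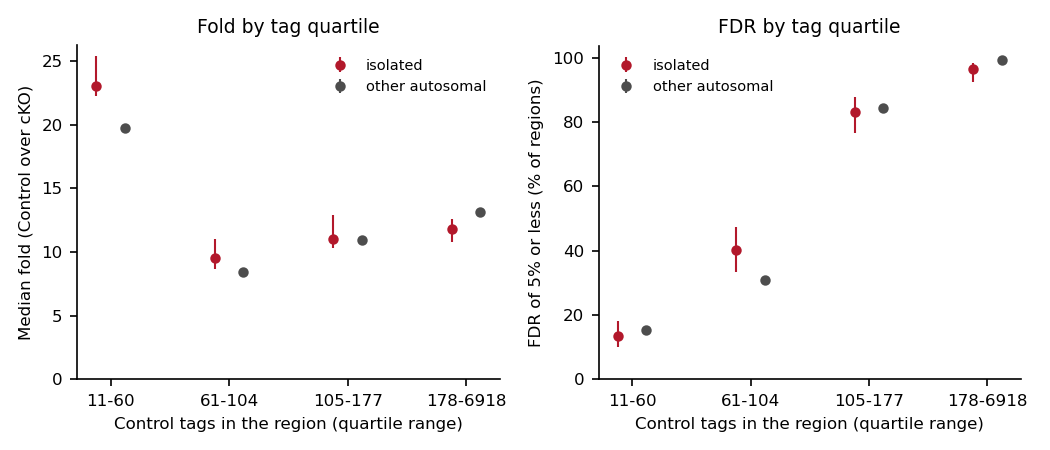
Median fold (left) and percent of regions with an FDR of 5% or less (right) by quartile of Control tags over all autosomal regions, isolated regions in red and other autosomal regions in grey, bars being 95% binomial intervals. In the highest quartile the median fold was 11.8 in isolated and 13.15 in other regions, whereas it was 23.1 and 19.8 in the lowest.

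Some of the high folds in thin regions stood at the minimum background that the caller allows. The caller divides the Control summit by the largest of several background estimates. The smallest possible is the genome-wide one, taken here from the Control tag total, which the file header's values set at 0.303 tags. A region at this minimum has a fold that is a whole multiple of 3.30, set by its Control summit alone. Folds of 89 isolated regions were such multiples within a tolerance of 0.0051 (10.9%, 8.90 to 13.2), against 5.38% of other regions (5.15 to 5.63). A match by rounding alone is found for about 0.265% of folds. Of these 89 regions, 87 had 11 to 60 tags, and their median was 15 tags and a fold of 32.96. The same fold of 29.66 was listed for 14 isolated regions with 11 to 22 tags, a value equal to 9 tags at the summit. Without the regions at the minimum, the median fold was 12.4 in isolated and 11.65 in other regions, and in the lowest tag quartile 17.7 and 16.1.

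By the gap to the nearer neighbour, the gene content of regions fell stepwise from gaps of 2 to 10 kb onward to the isolated regions. Their tag count fell up to gaps of 100 to 200 kb and was about the same in isolated regions. The median tag count was 110 at gaps of 2 to 10 kb, 105 at 10 to 50 kb, 94 at 50 to 100 kb, 86 at 100 to 200 kb and 85 in isolated regions. Just inside the limit, 97 regions with a nearer gap of over 200 to 210 kb had a median of 86 tags and a fold of 14.3, and just outside it 93 regions with 190 to 200 kb had 69 tags and a fold of 14.4. The summit lay within a protein-coding gene for 59.1% of regions at 2 to 10 kb, 53.7% at 10 to 50 kb, 41.6% at 50 to 100 kb, 33.7% at 100 to 200 kb and 27.2% in isolated regions.

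**Figure D3:**
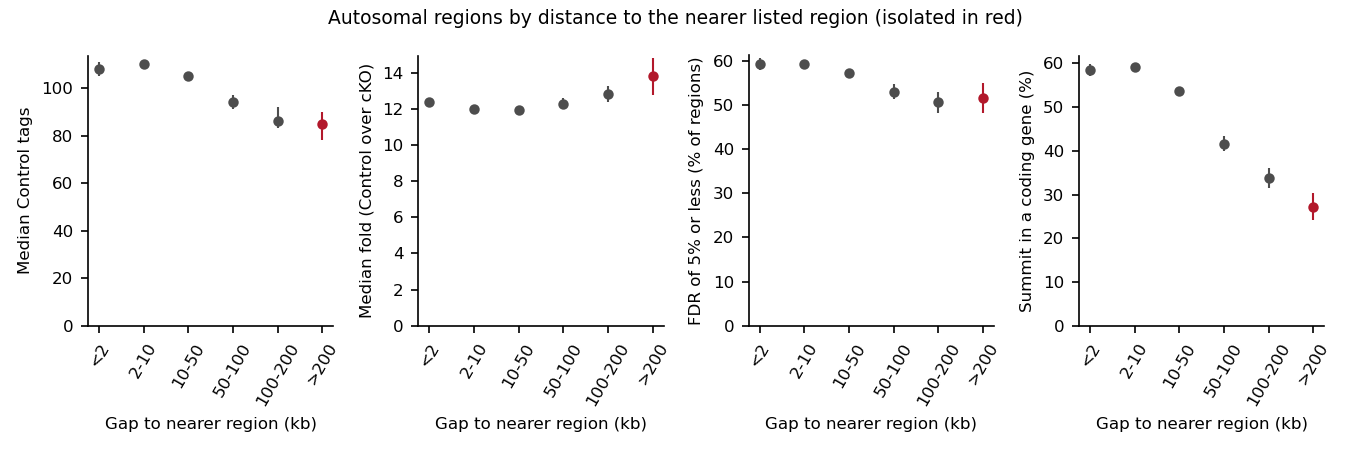
Autosomal regions by the gap to their nearer listed neighbour (kb): median Control tags, median fold of Control over cKO, percent with an FDR of 5% or less and percent with the summit within a protein-coding gene, with 95% binomial intervals, isolated regions in red. Tags fall from 110 at 2 to 10 kb to 86 at 100 to 200 kb, with 85 in isolated regions. The share in coding genes falls from 59.1% at 2 to 10 kb to 27.2% in isolated regions.

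Most isolated regions were intergenic. The summit fell in no gene model and away from gene ends for 507 of them (61.8%, 58.5 to 65.1), against 33.9% of other autosomal regions. It fell within a protein-coding gene for 223 (27.2%, 24.3 to 30.3), against 53.9%, and in another gene model such as a long noncoding RNA for 76 (9.27%, 7.47 to 11.4), against 7.52%. The coding share was lower among isolated regions on 19 of 19 autosomes. The median isolated region had 1 protein-coding gene within 200 kb, where other regions had 5. No protein-coding gene lay within 200 kb of 310 isolated regions (37.8%), against 5.56% of other regions. The summit was more than 500 kb from any protein-coding gene for 19.1% of isolated and 1.69% of other regions.

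The share within genes was close to that of the surrounding sequence. Within 200 kb of the isolated regions, protein-coding genes covered on average 27.7% of bases, and 28.3% of the isolated summits (25.3 to 31.5) lay inside an annotated protein-coding span, ends included. Around other regions the genes covered 53.3% of bases and held 56.5% of summits. For gene ends the values were 1.71% of isolated summits against 1.44% of the surrounding bases, and 4.72% of other summits against 4.96% of bases.

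**Figure D4:**
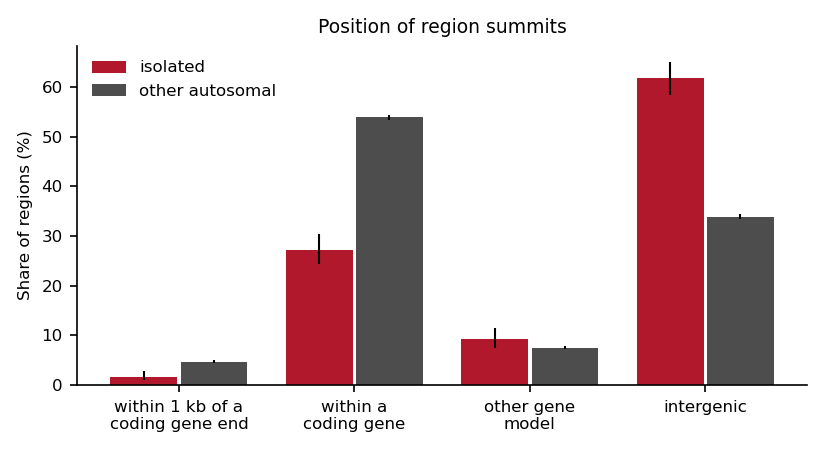
Percent of isolated (red) and other autosomal (grey) regions by position of the summit: at a protein-coding gene end (1 kb or less from it), within such a gene, in another gene model, or intergenic; bars start at 0 and error bars are 95% Wilson intervals. Intergenic summits were 61.8% of isolated and 33.9% of other regions.

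The 14 isolated regions at the end of a protein-coding gene (1.71%, 1.02 to 2.85, against 4.72% of other regions) included 4 at an annotated start by the strand in RefSeq. Neurod6, a neuronal helix-loop-helix transcription factor, had a region of 113 tags and a fold of 20.92 (chromosome 6, 55680155 to 55680611, FDR 0%), with the summit inside the gene 789 bp from its start. Kcnh1, a voltage-gated potassium channel gene, had 78 tags, a fold of 17.27 and an FDR of 0.36%. Its summit lay inside the gene span, 668 bp from the start of the span. It was 965 bp before the RefSeq transcript start of the gene's promoter window. The other starts were those of the predicted gene Gm41099 (9.3-fold, FDR 56.91%) and of the lipase-like gene Lipo2 (4-fold, FDR 3.86%). The region in Osr1, near the end of its span, an odd-skipped transcription factor of limb and kidney development, had 91 tags, a fold of 10.16 and an FDR of 1.03%, and that near the end of Kcnn2, a calcium-activated potassium channel gene, had 143 tags and a fold of 15.73. For Osr1, Kcnn2 and Ppp1r17 the strand was not used here. At transcript ends, D5Ertd579e had the largest fold, 39.55, from 27 tags (FDR 12.15%). Gm40892 followed with 30.49 and 164 tags, Magohb, an exon junction complex gene, had 25.55 from 16 tags (FDR 100%), and Olfr38, Plcxd2, Arl5b and Grxcr1 had 7.18 to 15.84.

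Genes that held an isolated region were long. The 213 such protein-coding genes had a median length of 349 kb, against 42.7 kb for the 7908 genes holding another region and 17.5 kb for all 20665 autosomal protein-coding genes. Of genes over 500 kb, 74 of 216 (34.3%) had an isolated region inside or within 5 kb, against 94 of 2097 genes of 100 to 500 kb (4.48%) and 71 of 18352 shorter genes (0.387%). Any listed region was found there for 96.3%, 85.9% and 44.2% of these classes. A longer gene covers more sequence, and how far length alone sets these shares was not tested. For 148 of the 213 genes (69.5%), every listed region with its summit in the gene was isolated. A gene shorter than 200 kb that holds an isolated region can hold no other, so the rule itself sets part of this share.

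At least 2 isolated regions lay in each of 19 protein-coding genes. Robo2 held 4, with no other listed region in it. They had 108, 11, 43 and 87 Control tags along the chromosome, and folds of 17.56, 29.66, 24.88 and 21.52. The region with 11 tags had an FDR of 100%, whereas the other 3 had at most 3.73%. Pcdh15, a protocadherin of inner ear hair cells, held 3, of 75, 15 and 60 tags, with folds of 38.42, 26.37 and 11.43. Its FDR was 0% for the first of these, and 100% and 27.37% for the other two.

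Among genes with 2, the strongest pair by tags lay in Kcnip4, at 247 and 289 tags with folds of 14.73 and 35.12 and an FDR of 0% for both. Grik2, a kainate receptor gene, held 155 and 254 tags at 13.54-fold and 24.99-fold. Erc2, a gene of the presynaptic active zone, held 231 and 117 tags at 18.14-fold and 22.13-fold. The FDR did not exceed 0.02% in any of the 6 regions of these 3 genes. In others the regions were unlike each other. Erbb4, a neuregulin receptor gene, had 12 tags at 39.55-fold (FDR 62.85%) and 163 tags at 8.04-fold (FDR 0.12%). Cntnap2, a neurexin family gene, had 167 tags at 30.3-fold (FDR 0%) and 12 tags at 26.37-fold (FDR 100%), and Fgf14, an intracellular regulator of sodium channels, had 119 tags at 33.32-fold and 17 tags at 17.81-fold. Cpq, which encodes the peptidase carboxypeptidase Q, had 76 tags at 32.51-fold (FDR 0.02%) and 147 tags at 5.43-fold (FDR 33%).

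**Figure D5:**
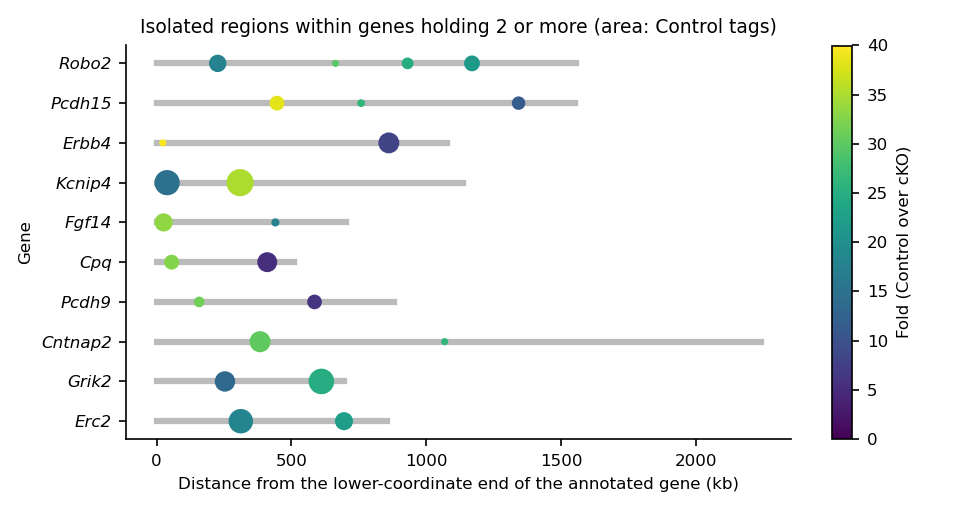
The 10 genes first by number of isolated regions and then by largest fold, drawn from the lower-coordinate end of each annotated gene (kb), with each isolated region as a point coloured by its fold of Control over cKO and with an area proportional to its Control tags. Robo2 holds 4 regions and Pcdh15 holds 3, and small points of few tags stand beside large ones in Erbb4, Cntnap2 and Fgf14.

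Genes of the cartilage programme had no isolated region. None of 20 genes of cartilage matrix and chondrocyte identity, such as Acan and Col2a1, had one inside or within 5 kb, although 9 of them had a listed region of some kind. Nor did any of 19 autosomal hypertrophy and ossification genes (11 with a listed region), of 34 BMP and TGF-beta signalling genes (21 with one) or of 15 markers of other cell types (9 with one). Over all autosomal protein-coding genes 1.16% had an isolated region and 49.0% had any, so a count of 0 in lists of this size is near what the background gives.

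Cadherin and synaptic adhesion genes were the list with most isolated regions, at 20 of 53 autosomal members (37.7%), and 40 of 53 (75.5%) had any listed region. These genes have a median length of 718 kb. Of the 30 members over 500 kb, 18 (60%) had an isolated region, beside 34.3% of all autosomal genes over 500 kb. That class includes these members and has a median length of 735 kb, and length within it was not matched. The 31 isolated regions concerned had a median of 60 tags and a fold of 17.6, and 13 of them had an FDR of 5% or less. The largest folds, in Cntnap5b (46.14 from 17 tags, FDR 44.77%) and Cntn4, a contactin gene (39.55 from 24 tags, FDR 28.06%), came from regions of few tags. Pcdh15 followed with the region given above, and Pcdh9 had 31.36 from 34 tags (FDR 8.26%).

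Of 42 developmental transcription factors 2 (4.76%) had an isolated region. Sox11, a gene of neural and skeletal development, held a region of 145 tags with a fold of 10.34 and an FDR of 0.16% (chromosome 12, 27335248 to 27335758). It lay 978 kb and 839 kb from its neighbours. Dach1, a transcriptional regulator of limb and eye development, had one of 119 tags at 8.26-fold (FDR 0.71%).

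Some isolated regions lay in gene-rich neighbourhoods. At least 5 protein-coding genes lay within 200 kb of 88 isolated regions, and 39 of these 88 had an olfactory, vomeronasal, taste or trace amine receptor gene among them. At least 10 lay near 28 isolated regions, 22 of which had such a receptor gene, and neither share was computed for other regions. These tandem arrays of single receptors serve smell and taste and are largely silent outside sensory cells, which was not measured here. Over all isolated regions, 41 (5%, 3.71 to 6.71) had such a gene within 200 kb, against 2.14% of other regions. Olfactory receptor genes were near 26 of them and type 1 vomeronasal receptor genes near 11. No receptor gene contained an isolated summit. A run of 5 isolated regions on chromosome 2 (85482664 to 86622707) crossed 58 protein-coding genes, nearly all olfactory receptors, with 19 to 112 tags, folds of 6.82 to 31.17, and an FDR of 5% or less for 2 of the 5. The isolated regions near receptor genes had a median of 62 tags (40 to 129) and a fold of 16.4 (14.4 to 24.6), and the remaining 779 had 85 tags (79 to 91) and a fold of 13.3 (12.6 to 14.6).

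The 10 isolated regions with most Control tags had folds of 3.03 to 15.62. The first, in Mdga2, an adhesion gene of the immunoglobulin superfamily, had 1078 tags and a fold of 3.59 (chromosome 12, 67059153 to 67060041, FDR 0%). It was followed by one in Mctp1, a calcium-binding membrane protein gene, with 479 tags, a fold of 15.62 and the highest score of all isolated regions (chromosome 13, 76513817 to 76514670). Others stood in Fgf12 (455 tags, 8.96-fold), in the netrin receptor gene Dcc (447 tags, 4.43-fold) and in Dscam, an adhesion gene (413 tags, 5.71-fold). The other 5 of the 10 lay outside protein-coding genes, with 392 to 419 tags and folds of 3.03 to 8.9. Of these 10 regions 9 had an FDR of 5% or less, the exception (11.57%) being one of 394 tags 413 kb from Cetn3.

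At an FDR of 5% or less, 9 of the 10 largest folds were intergenic, and the 10 regions had 26 to 115 tags. The largest, 102.51, came from 115 tags on chromosome 12 (68304280 to 68304734), 853 kb from the nearest protein-coding gene, Rps29. On chromosome 10, a region of 31 tags had 95.58-fold (46380229 to 46380404), 668 kb from Hace1, and one of 76 tags had 95.16-fold, 93.9 kb from Grik2. A region of 77 tags 38.6 kb from Ppp1r3a had 83.97-fold. The exception to the intergenic position was in Ntng1, a netrin-like synaptic gene, with 26 tags and 64.78-fold. Of these 10 folds 2, the 95.58 and one of 59.33, stood at the background minimum.

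The 10 regions with the largest nearer gap had 14 to 328 tags. The region with the largest gap on its nearer side, among those with a neighbour on both sides, lay on chromosome 15 (70863017 to 70863555), 1868 kb and 1787 kb from its neighbours and 576 kb from Fam135b, with 177 tags, a fold of 9.61 and an FDR of 0%. On chromosome 14 a region of 150 tags and 7.39-fold (90863758 to 90864236, FDR 0.07%) stood 2150 kb from the nearest protein-coding gene, Pcdh9. Regions in Astn2 (322 tags, 7.11-fold) and 1071 kb from Manea (328 tags, 6.01-fold) had an FDR of 0%, and the region in Cntn4 was a further one of the 10. The first listed region of chromosome 14, at 3177432 to 3177761, had a neighbour on 1 side only, at 2128 kb, with 65 tags, 7.93-fold and an FDR of 96.28%. The remaining 3 included a region on chromosome 18 beyond Cbln2 (14 tags, 42.85-fold, FDR 100%). Another, on chromosome 3, lay 1265 kb from Sis, its nearest protein-coding gene (89 tags, 8.08-fold, FDR 6.58%). The last, on chromosome 6, had Grm7 as its nearest protein-coding gene (86 tags, 5.16-fold, FDR 100%). With Sox11, 5 of these 10 had an FDR of 5% or less.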

How the data were processed

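The deposited file is a region list that the authors obtained from MACS 1.4.2, in which Control tags were tested over cKO tags as background, per the file headers. The limit on p was 1e-10, at most 1 tag was kept per position, and d was 58 bp at a tag size of 55 bp, per the file headers. The build is mm10, per the submitters' processing notes. Tags are the deposited count of Control tags in a region. The score, the fold and the FDR in percent are the authors' values per the file headers. The fold is a ratio of the Control summit to the background, from local cKO tags or the genome-wide minimum. The aligner is not given in the sources used here.

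Regions were sorted by chromosome and start, and gaps were taken between end and next start. The first and last region of a chromosome needed a gap on the inner side only, which admitted 3 regions. Genes were those of the RefSeq table of GRCm38.p6 (49997 models, 21900 protein-coding), which gives no strand or exons, so an end is either end of a span. Strand and sequences came from the RefSeq promoter and microRNA tables. Members, lists and rules were chosen with earlier results of these data known. Regions named were the 10 with most tags, the 10 with the largest fold at an FDR of 5% or less, the 10 with the largest nearer gap and up to 15 at gene ends. Genes named were those with at least 2 isolated regions (up to 10, ordered by number and then by largest fold) and up to 4 members of each list. Gap bins, runs, the background minimum, gene length classes and neighbourhood coverage were added after the data were seen. Medians have order-statistic intervals and shares Wilson intervals (95%). The steps that find isolated regions and assign gene classes were tested on simulated regions. Tables were handled in pandas 2.3.3 and NumPy 2.4.6 under Python 3.11.15, intervals in SciPy 1.17.1 and figures in Matplotlib 3.10.9.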

Additional observations from a re-analysis of the deposited data

Results flagged for a closer look

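Regions with no neighbour within 200 kb also occurred on the sex chromosomes, which the rule leaves out and no comparison uses. The X chromosome had 115 among 854 listed regions (13.5%, 95% Wilson interval 11.3 to 15.9), with a median of 66 tags and a fold of 13.6. The Y chromosome had 156 among 332 (47.0%, 41.7 to 52.4), with a median of 30 tags and a fold of 29.6. An FDR of 5% or less was listed for 52 of the 115 and for 48 of the 156.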

How the results depend on the processing

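Of 70 values recomputed under 8 alternatives, 45 stayed within the 95% interval of the reported value or, for counts, within 1.5 times. At an isolation distance of 100 kb, 2496 regions (7.20%) were isolated, with 31.6% in coding genes and 56.0% intergenic. At 500 kb, 74 (0.213%) were, with a median fold of 15.6, 33.8% in coding genes, 58.1% intergenic, 0% at gene ends and 0% near receptor genes. Judged on regions of a score of at least 200, 4.47% were isolated, with 121 tags, 482.5 bp and 78.2% at an FDR of 5% or less. Judged on regions at an FDR of 5% or less, 5.95% were, with 143 tags, 510 bp and 58.3% intergenic. The 422 isolated regions at that FDR (1.22%, an alternative added after seeing the data) had 145.5 tags, a fold of 14.8 and 516.5 bp. A 2 kb window put 3.66% at gene ends. The stricter limits remove regions of few tags, which raises tags and length by construction. Leaving out the chromosomes' first and last regions moved none of the 11 values. In each of the 5 alternatives that redefine isolation, isolated regions kept fewer median tags, a higher median fold and a lower coding share than other regions. No paired analysis was possible because each genotype has 1 library. The 169 isolated regions with an FDR of 100% had a median of 23 tags, and the part of depth in their FDR was not tested.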

Other observations

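Other microRNA genes lay near isolated regions without being covered by one. Within 50 kb the nearest after Mir218-1 were Mir3066 (4996 bp from a region of 19 tags, FDR 100%) and Mir6387 (7240 bp, 95 tags, FDR 41.54%). Mir137, which is abundant in neurons, was 14874 bp from a region of 61 tags (6.74-fold, FDR 100%), and Mir675, which lies in the imprinted H19 gene, was 25253 bp from one of 128 tags (7.46-fold, FDR 1.88%).

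Tandem clusters other than receptors also held isolated regions, but the same counts were not made for other regions, so no excess can be read from them. Among neighbourhoods with at least 5 protein-coding genes sharing a symbol stem, 7 shared the stem Gm of predicted genes, which is no family, 2 lay in the placental prolactin family (Prl) and 1 each among Akr, Cyp, Clec, Ccl, Pramel, Scgb, Serpinb and Zfp genes. The region in the Akr cluster was among the 10 with most tags, at 392 tags and 7.14-fold, 15.2 kb from Akr1c12 (chromosome 13, 4294395 to 4295156).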
